A study of Mus musculus with 16 samples.

Results

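Of 16 ileum libraries, 4 held more RNA of B-cell follicles than the other 12. They were chosen by the level of Cd79a, which encodes the signalling chain Ig-alpha of the B-cell receptor. The rule took libraries in which the counts of Cd79a, as CPM (counts per M, or 1e6, counts of the library), exceeded 14. These were male WT replicate 2, female WT replicate 3, female LKO replicate 2 and female LKO replicate 3, with 28.0, 16.1, 42.5 and 81.0 CPM of Cd79a, and values of the 4 libraries are given in that order throughout. The lowest of them, female WT replicate 3, stood at 16.1 CPM, and the library just under the threshold, female LKO replicate 1, at 12.8 CPM.

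Poly(A) RNA from a piece of ileum taken next to the cecum of C57BL/6 mice was sequenced in 16 libraries, 4 for each sex of 2 genotypes, WT and LKO. WT animals were Bcl6fl/fl, with loxP sites around part of the gene of the transcriptional repressor BCL6. Bcl6LKO animals (LKO) carried the same floxed alleles and Cre recombinase under the albumin promoter, which acts in hepatocytes, so that Bcl6 was not targeted in the ileum of either genotype. The age of the animals and the feeding state of these particular samples were not given in the sources used here. Each library was labelled as a replicate of its group, so that the errors given measure the spread between these samples.

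The ileum carries organised lymphoid tissue in its wall, the Peyer's patches and smaller isolated lymphoid follicles. In a follicle, B cells gather around follicular dendritic cells that attract them with the chemokine CXCL13, naive lymphocytes enter from the blood through high endothelial venules, and germinal centres form in which B cells divide and are selected. Outside these follicles the lamina propria holds mainly plasma cells, T cells and antigen-presenting cells, and few naive B cells.

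Summed gene counts lay between 15.7 and 20.5 M in 15 libraries and reached 60.3 M in female LKO replicate 1, which was not among the 4. The 4 libraries had 15.7 to 18.3 M, so that 3 counts, the limit that a count of 0 allows, equalled 0.164 to 0.191 CPM in them (counting error only). Replicate numbers of the groups were not tied to shared litters, days or batches in the labels, and no other batch was named. In 1 library outside the 4, male LKO replicate 3, the MHC class II genes were low, with 1197 CPM of Cd74 against 2194 to 3558 CPM in the remaining 11.

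Between the 4 libraries and the other 12, several genes of follicular B cells differed by more than 16-fold. A gene is called set apart here when the ranges of CPM of the 4 and of the 12 libraries did not overlap and the fitted difference was at least 2-fold. Of 15598 genes tested, 78 were set apart with higher values in the 4 libraries (0.50%) and 0 with lower values. Because Cd79a, a measured value, chose the libraries, these counts are a description and carry no p-value. They include Cd79a itself, whose ranges were parted by the rule. The median log2 difference over all genes tested was -0.004.

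With ranges apart and no minimum fold there were 148 genes higher (0.949%) and 23 lower (0.147%). The 78 genes set apart together made up between 0.0487% and 0.182% of all counts in the 4 libraries, against 0.0205% to 0.0298% in the others. Their number turned on female WT replicate 3, the library nearest to the threshold: without it, 122 genes were set apart. In bulk tissue, fewer cells of a type and less RNA per cell cannot be told apart.

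Among the 24 tested genes of the list for the B-cell receptor and B-cell surface, 18 were set apart, with a median log2 difference of 2.27. The 18 include Cd79a, whose ranges were parted by the rule. Ms4a1, which encodes the B-cell surface protein CD20 (mm10 chromosome 19, 11250603 to 11266151, minus strand), measured 13.9, 6.73, 20.6 and 41.2 CPM in the 4 libraries and 0.355 to 1.28 CPM (median 0.848) in the other 12. Even the lowest of the 4 libraries lay several-fold above the highest of the others, and the log2 difference was 4.41 (SE 0.31). The same 4 libraries were the highest 4 for Cd79a, Cd79b, Ms4a1 and Cr2, of which Cd79a alone was used to choose them. Cd79b, the partner chain of Cd79a in the receptor, measured 19.4, 15.6, 33.4 and 63.9 CPM against 5.35 to 9.61 CPM (median 7.23), so that the step between the sets was shallower for this receptor chain than for Ms4a1.

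**Figure D1:**
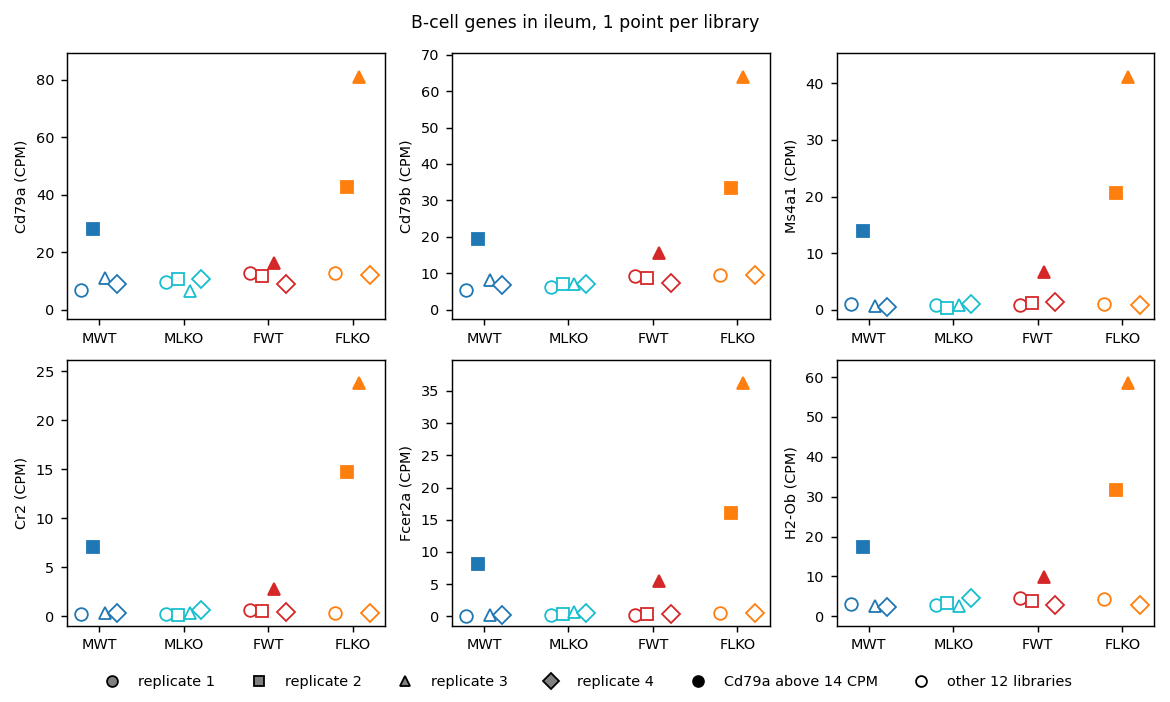
Levels of 6 B-cell genes in CPM (vertical axes, linear), with 1 point per library, grouped by sex and genotype along the horizontal axis. MWT, MLKO, FWT and FLKO are the male and female WT and LKO groups, and filled symbols are the 4 libraries above 14 CPM of Cd79a. Every filled symbol lies above every open one in each panel, for Cd79a by the rule itself. Female LKO replicate 3 (filled orange triangle) is highest, with 81.0 CPM of Cd79a and 41.2 CPM of Ms4a1.

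Several B-cell genes were close to the limit of detection in the other 12 libraries, so that the width of their differences is uncertain. Fcer2a, the low-affinity IgE receptor CD23 of follicular B cells, measured 8.20, 5.47, 16.1 and 36.1 CPM in the 4 libraries and 0.050 to 0.611 CPM (median 0.372) in the others (log2 difference 5.44, SE 0.27). Fcmr, the receptor for IgM, measured 7.24, 3.50, 13.9 and 30.8 CPM against 0.0546 to 0.663 CPM (median 0.289), with a log2 difference of 5.19 (SE 0.39). Pax5, the transcription factor that maintains B-cell identity, measured 2.54, 1.31, 4.18 and 10.1 CPM, whereas 2 of the other 12 libraries had 0 counts and the highest had 0.283 CPM. None of the 3 genes overlapped between the sets, and all lay at 0.663 CPM or less in the 12 other libraries.

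Cr2, the complement receptor CD21 shared by B cells and follicular dendritic cells (chromosome 1, 195136811 to 195176715, minus strand), measured 7.05, 2.79, 14.7 and 23.8 CPM against 0.118 to 0.660 CPM (median 0.325) (log2 difference 4.82, SE 0.37). Cxcr5, the receptor by which B cells follow CXCL13 into a follicle, measured 6.23, 2.73, 14.5 and 28.2 CPM against 0.161 to 1.02 CPM (median 0.718), a difference of 3.97 (SE 0.40). Both were thus higher in each of the 4 libraries than in any other. Further members set apart were the kinase gene Blk (log2 difference 3.05, SE 0.27), the BAFF receptor gene Tnfrsf13c (2.89, SE 0.33), the inhibitory receptor gene Cd22 (2.79, SE 0.26), the scaffold gene Bank1 (2.75, SE 0.26), the Fc receptor-like gene Fcrl1 (2.61, SE 0.26) and the tetraspanin gene Cd37 (1.93, SE 0.20).

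Of the 6 tested members of this list that were not set apart, 5 had overlapping ranges. Pou2af1, a B-cell coactivator that plasma cells also use, measured 30.1, 26.6, 37.0 and 72.4 CPM against 16 to 25.1 CPM (median 20.4), with ranges apart but a log2 difference of only 0.89 (SE 0.15). Blnk, an adaptor of B-cell receptor signalling, measured 38.9, 35.2, 38.9 and 47.1 CPM against 32.4 to 50.1 CPM (median 39.7), and its ranges lay on top of each other (log2 difference 0.11, SE 0.09). Ebf1, a B-cell factor that stromal cells also express, had a log2 difference of 0.65 (SE 0.22), and Cd72, a B-cell coreceptor, one of 0.70 (SE 0.12). All 24 tested members nevertheless had a positive difference.

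Upstream sequences are shown for 3 genes set apart that hold a motif of a B-cell transcription factor, chosen after their values were seen. RefSeq entries on GRCm38.p6, the assembly that mm10 names, gave 250 bases before a start for 58 of the 78 genes. The octamer ATGCAAAT bound by OCT factors was found on either strand in 6 of the 79 entries of these genes (7.59%), and in 1.60% of all 32851 entries. AGGAAGT, a core of Ets-family factors such as SPI-B, was found in 14 of the 79 (17.7%) and in 7.69% of all entries. The letters of the motifs did not overlap in the stretches printed, and a match is a description of sequence and not a binding site. Capitals mark the motif, given 5′ to 3′ on the strand of the gene.
Cd79a, chr7:24897247-24897496, plus strand, with the Ets core 55 bases before the start: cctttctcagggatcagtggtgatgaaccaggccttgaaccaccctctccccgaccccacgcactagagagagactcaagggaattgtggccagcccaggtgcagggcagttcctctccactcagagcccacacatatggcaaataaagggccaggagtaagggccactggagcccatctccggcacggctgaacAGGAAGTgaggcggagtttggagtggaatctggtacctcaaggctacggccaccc
Mef2b, chr8:70152511-70152760, plus strand, with the octamer 85 bases before the start: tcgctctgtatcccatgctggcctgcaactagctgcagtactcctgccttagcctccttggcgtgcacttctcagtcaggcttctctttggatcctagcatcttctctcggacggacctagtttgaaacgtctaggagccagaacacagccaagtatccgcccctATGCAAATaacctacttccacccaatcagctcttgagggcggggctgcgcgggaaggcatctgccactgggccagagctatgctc
Ccr6, chr17:8235793-8236042, plus strand, with both the Ets core (224 bases before the start) and the octamer (68 bases before it) on the opposite strand: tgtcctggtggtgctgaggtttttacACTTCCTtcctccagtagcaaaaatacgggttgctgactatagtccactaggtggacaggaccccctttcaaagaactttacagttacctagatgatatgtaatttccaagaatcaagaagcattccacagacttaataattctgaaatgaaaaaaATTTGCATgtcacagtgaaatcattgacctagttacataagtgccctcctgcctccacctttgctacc

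Of the factors of these families, Spib, which encodes SPI-B of B cells and of the M cells over follicles, measured 21.3, 17.1, 39.2 and 69.9 CPM against 5.06 to 13.8 CPM (median 9.08), a log2 difference of 1.73 (SE 0.28). Pou2f2, which encodes OCT-2, measured 7.05, 4.87, 9.04 and 14.9 CPM against 1.83 to 3.0 CPM (median 2.62) (1.75, SE 0.19). Both were set apart, and for Pou2f2 the lowest of the 4 libraries and the highest of the 12 were 4.87 and 3.0 CPM. Pou2f3, of the same OCT family, overlapped between the sets, with 4.07, 4.05, 5.35 and 6.28 CPM against 2.25 to 4.59 CPM. The remaining members of these families were not surveyed.

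Of the 10 genes of MHC class II presentation, 3 were set apart, with a median log2 difference of 0.07 over the list. H2-Ob, the beta chain of H2-O, a modulator of peptide loading found mainly in B cells, measured 17.3, 9.90, 31.8 and 58.4 CPM against 2.24 to 4.68 CPM (median 3.03), a log2 difference of 2.90 (SE 0.27). H2-Oa, its alpha chain, differed by 2.13 (SE 0.25), and H2-DMb2 by 1.96 (SE 0.27). H2-Eb2, a class II beta chain gene outside the list, measured 6.23, 3.50, 10.8 and 20.5 CPM against 0.873 to 1.98 CPM (median 1.28) (2.74, SE 0.27). The classical chains and the invariant chain, which many antigen-presenting cells and the ileal epithelium make, overlapped between the sets: H2-Aa differed by 0.06 (SE 0.19), H2-Ab1 by 0.05 (SE 0.16) and Cd74 by -0.01 (SE 0.16) on the log2 scale. H2-DMa and H2-DMb1, the other chains of the peptide-loading factor H2-DM, overlapped as well, at differences of -0.02 (SE 0.15) and 0.01 (SE 0.18).

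The list for the germinal centre had 15 tested genes, of which 1 was set apart, and its median log2 difference was 0.36. The gene set apart was Mef2b, a factor of germinal centre B cells, which measured 1.21, 0.930, 3.32 and 5.88 CPM against 0 to 0.700 CPM (median 0.202) (log2 difference 3.41, SE 0.36). Gcsam, a germinal centre signalling adaptor, measured 1.46, 0.492, 2.15 and 5.07 CPM against 0.195 to 0.592 CPM (median 0.347). Its ranges overlapped through female WT replicate 3 alone, which held 0.492 CPM, and the log2 difference was 2.40 (SE 0.34). S1pr2 differed by 0.24 (SE 0.13) and Fas by -0.01 (SE 0.15), both genes that other ileal cells express as well.

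Bcl6, which germinal centre B cells need and which the study targets in the liver (chromosome 16, 23965050 to 23981283, minus strand), measured 17.9, 14, 23.8 and 26.8 CPM against 9.66 to 21.7 CPM (median 15.6). The ranges overlapped and the log2 difference was 0.46 (SE 0.11). Both female LKO libraries of the 4 exceeded every other library, while female WT replicate 3, at 14 CPM, lay in the lower part of the range of the 12.

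**Figure D2:**
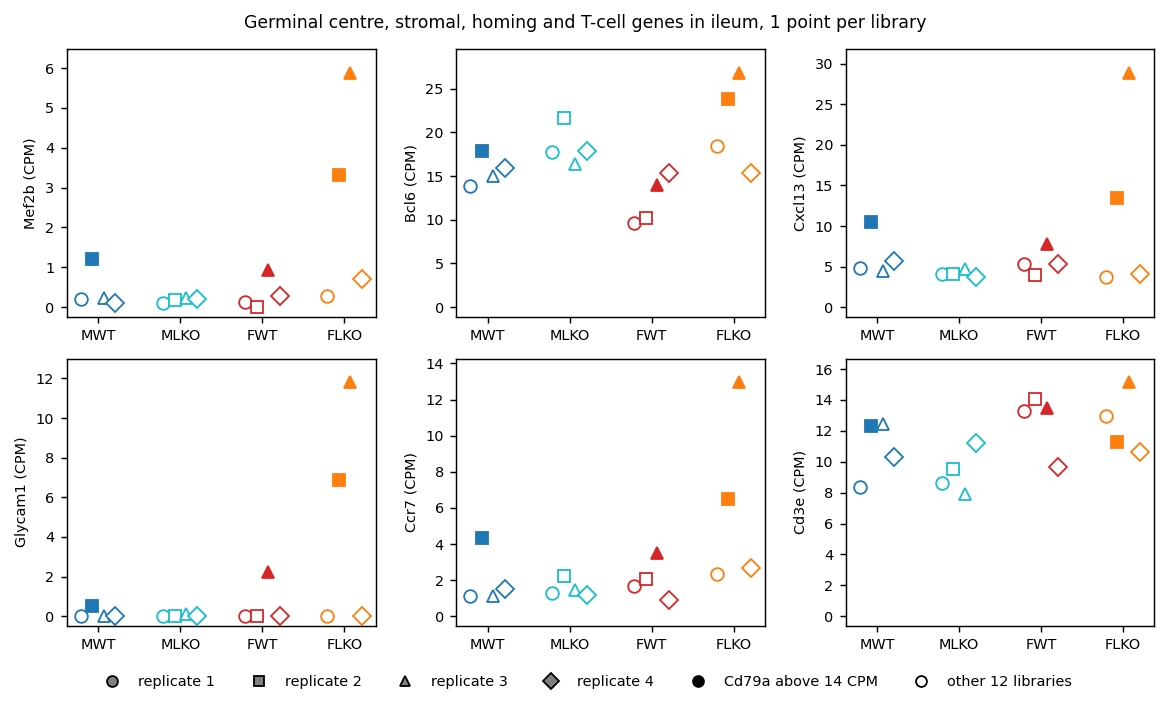
Levels in CPM (vertical axes, linear) of Mef2b and Bcl6 of germinal centre B cells, Cxcl13 of follicular stroma, Glycam1 of high endothelial venules, Ccr7 of naive lymphocytes and Cd3e of T cells, with 1 point per library, by group. Filled symbols are the 4 libraries. They lie above all open symbols for Mef2b, Cxcl13, Glycam1 and Ccr7, but overlap them for Bcl6 (open symbols up to 21.7 CPM) and Cd3e (up to 14.1 CPM).

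In the list for follicular dendritic cells and lymphoid stroma, 5 of 16 tested genes were set apart, with a median log2 difference of 0.70, and 3 had a negative difference. Cxcl13, the chemokine of follicular dendritic cells and their precursors (chromosome 5, 95956939 to 95961068, plus strand), measured 10.5, 7.82, 13.5 and 28.9 CPM against 3.68 to 5.71 CPM (median 4.28), a difference of 1.69 (SE 0.25). Ccl19, a chemokine of the T-cell zone, measured 0.699, 0.984, 1.97 and 2.71 CPM against 0.109 to 0.474 CPM (median 0.192) (2.42, SE 0.30), but the table holds it at 2 genomic positions and its counts are uncertain. Each of the 4 libraries lay above all others for both chemokines.

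Ltb, the lymphotoxin chain with which B cells sustain follicular dendritic cells, measured 8.96, 6.12, 13.7 and 27.8 CPM against 3.11 to 5.79 CPM (median 4.05) (1.56, SE 0.21), and its partner Lta differed by 1.63 (SE 0.33). Clu, an abundant secreted chaperone of follicular dendritic cells and follicle epithelium, measured 75.3, 70.5, 107 and 189.6 CPM against 28.8 to 46.3 CPM (median 36.2) (1.45, SE 0.17). Mfge8, with which dendritic stromal and phagocytic cells bind dying cells, measured 117, 111, 168 and 254 CPM against 74.1 to 106 CPM (median 85.3), with ranges apart and a log2 difference of 0.78 (SE 0.14). Enpp2 and Ccl21a, expressed in lymphoid and lymphatic stroma, differed by 0.37 (SE 0.15) and 0.35 (SE 0.14), and their ranges overlapped.

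The list for high endothelial venules had 4 tested genes with a median log2 difference of -0.03, and 0 were set apart, against 0.50% of all genes. Madcam1, the addressin to which lymphocytes bind in the gut, measured 10.4, 8.15, 14.3 and 24.6 CPM against 4.86 to 8.71 CPM (median 6.43) (1.05, SE 0.20), with an overlap through female WT replicate 3. Cd34 and Ackr1, which other endothelium also expresses, differed by -0.09 (SE 0.07) and 0.03 (SE 0.20). Glycam1, a mucin-like glycoprotein of high endothelial venules (chromosome 15, 103562760 to 103565081, minus strand), was under the filter and was not tested. It measured 0.508, 2.24, 6.89 and 11.8 CPM in the 4 libraries, with 0 counts in 11 of the other 12 and 2 counts (0.111 CPM) in male LKO replicate 3.

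Of 12 tested homing genes of naive lymphocytes, 5 were set apart and all 12 had a positive difference, with a median of 0.80. Ccr7, the receptor for CCL19 and CCL21, measured 4.32, 3.50, 6.52 and 13.0 CPM against 0.890 to 2.69 CPM (median 1.49) (1.85, SE 0.22), and Ccr6, the receptor for the epithelial chemokine CCL20, 4.32, 2.46, 6.70 and 12 CPM against 0.445 to 1.26 CPM (median 0.908) (2.68, SE 0.28). Lef1, a factor of naive lymphocytes, differed by 1.91 (SE 0.31) and Ikzf3, a factor of maturing lymphocytes, by 1.11 (SE 0.14). Ptprc, the pan-leukocyte gene for CD45, differed by 0.71 (SE 0.11) with ranges apart.

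The ranges of T-cell genes overlapped between the sets. Of 20 tested genes of T cells and intraepithelial lymphocytes, 0 were set apart, against 0.50% of all genes. However, 19 had a positive difference, against 48.5% of all genes, and the median was 0.33, against -0.004 over all genes. Cd3e, a chain of the T-cell receptor complex, measured 12.3, 13.5, 11.3 and 15.2 CPM against 7.89 to 14.1 CPM (median 10.5) (0.20, SE 0.12). Pdcd1, which encodes PD-1 and is high in follicular helper T cells, measured 0.635, 0.547, 1.60 and 3.86 CPM against 0.250 to 1.03 CPM (median 0.639), so that only the female LKO libraries exceeded the others (1.07, SE 0.32). Icos, another gene of helper T cells, differed by 0.51 (SE 0.18), Cd8a by 0.44 (SE 0.16) and Gzma, of cytotoxic intraepithelial lymphocytes, by 0.10 (SE 0.21).

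Plasma-cell genes overlapped between the sets. In that list 0 of 11 genes were set apart, against 0.50% of all genes, and the median log2 difference was 0.02. Jchain, the joining chain of secreted IgA and IgM, measured 1722, 1429, 1214 and 2084 CPM against 1018 to 2078 CPM (median 1571) (-0.05, SE 0.16). Several listed genes fell under the filter and were not tested, among them Fut7 and Sele of venules, Il21 and Sh2d1a of helper T cells and Il22 and Ncr1 of innate lymphoid cells, while Ccl21b had 0 counts in every library. Of 14 genes of myeloid and dendritic cells 0 were set apart (median -0.04), and of 6 genes of innate lymphoid cells 0 (median -0.16). With 0.50% of all genes set apart, these counts of 0 are near that share.

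In the list for follicle-associated epithelium and M cells, the cells that take up antigen over a follicle, 2 of 16 genes were set apart and the median was 0.02. These were Spib and Clu, which the B-cell and stromal lists hold as well. Gp2, the M-cell receptor for bacteria, measured 1.08, 0.492, 1.72 and 4.27 CPM against 0.0546 to 0.915 CPM (median 0.254) (2.25, SE 0.45), overlapping through female WT replicate 3. Ccl20, the chemokine of this epithelium, measured 1.84, 2.46, 3.07 and 3.75 CPM against 1.22 to 2.86 CPM (median 1.80) (0.45, SE 0.18). The range of the 4 thus overlapped that of the 12 for both genes.

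**Figure D3:**
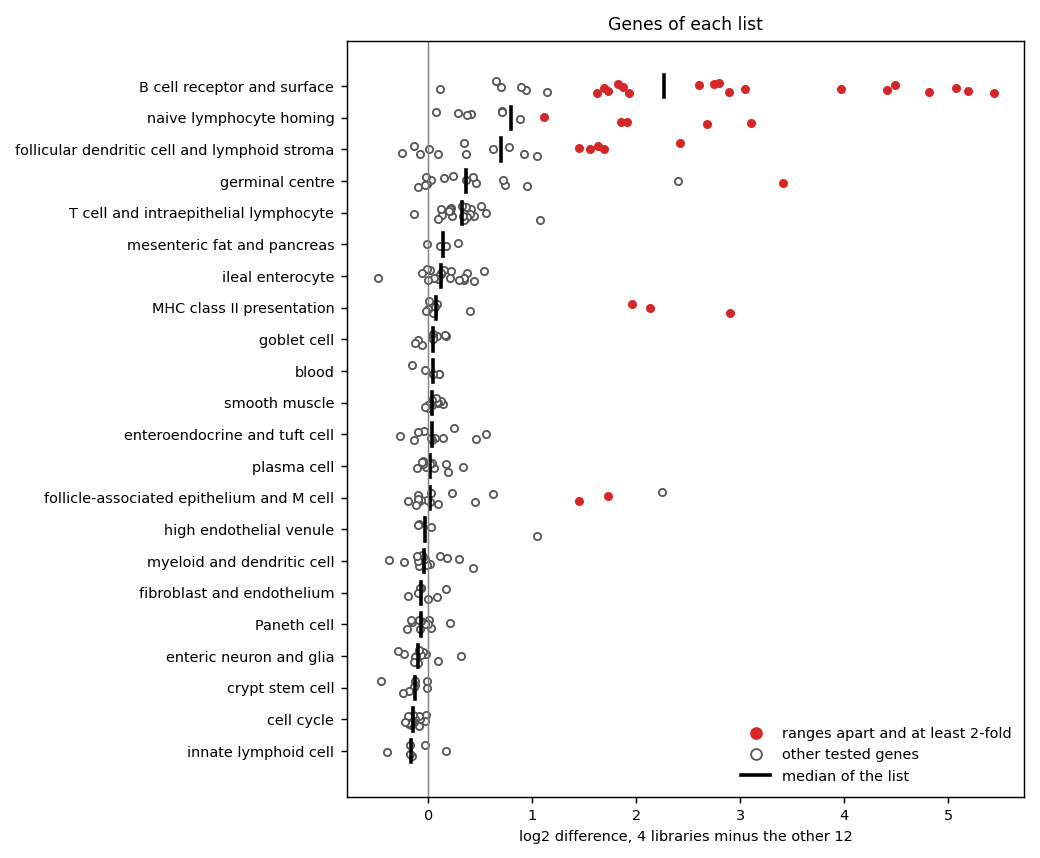
Fitted log2 differences (horizontal axis, the 4 libraries minus the other 12) of the tested genes of each list, with lists in order of their median (black bar). Filled red points are genes with ranges apart and at least 2-fold, of which the B-cell list holds 18, and open points are the other tested genes. The lists of the epithelium, muscle, nerve and blood lie near 0, where the median over all genes was -0.004.

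Outside the lists, 46 genes were set apart. The widest difference among those with a mean of at least 1 CPM was that of Chst3, a sulfotransferase of chondroitin chains, with 9.91, 4.98, 19.1 and 31.2 CPM against 0.278 to 1.47 CPM (median 1.03) (3.87, SE 0.32). Siglecg, an inhibitory lectin of B cells, measured 8.39, 4.16, 15.4 and 25.7 CPM against 0.710 to 2.21 CPM (median 1.35) (2.87, SE 0.32). Other genes in this group encode receptors: Cnr2, the cannabinoid receptor CB2 of immune cells (2.18, SE 0.31), Btla, an inhibitory receptor of lymphocytes (1.98, SE 0.20), Il21r, the receptor for the helper T-cell cytokine IL-21 (1.47, SE 0.22), Treml2 (2.26, SE 0.37) and Stra6, a receptor for retinol-binding protein (2.12, SE 0.27). Il4i1, an amino acid oxidase of lymphoid and myeloid cells, differed by 1.64 (SE 0.25) and Snn, stannin, by 1.46 (SE 0.21). Of all 78 genes set apart, 27 differed at least 4-fold, 11 at least 8-fold, and 11 had a mean under 1 CPM.

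The 4 libraries were not alike in amount. Female LKO replicate 3 was the highest library for all 78 genes set apart, and female WT replicate 3 the lowest of the 4 for 65 of them. For 64 genes the order was female LKO replicate 3, female LKO replicate 2, male WT replicate 2 and female WT replicate 3. Male WT replicate 2 was the lowest for 11 genes and female LKO replicate 2 for 2. These counts belong to genes chosen for lying above the other libraries and so carry no test.

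The counts of B-cell genes were set against those of Ms4a1 in each of the 4 libraries. For some genes the intervals of the proportions overlapped throughout. For each 100 counts of Ms4a1, H2-Ob had 125, 147, 154 and 142 counts, although Ms4a1 itself ran from 123 to 714 counts. The exact 95% counting intervals of these 4 values overlapped (the widest, in female WT replicate 3, was 116 to 187). Cd22 had 161, 207, 189 and 183 counts for each 100 of Ms4a1, and Pax5 had 18.3, 19.5, 20.3 and 24.5, again with intervals that overlapped throughout. The same held for the germinal centre genes Mef2b (8.68, 13.8, 16.1 and 14.3) and Gcsam (10.5, 7.32, 10.4 and 12.3) at this depth. Overlap of intervals is not a test that proportions are equal. H2-Ob and Cd22 also had a level in the other 12 libraries, up to 4.68 and 5.89 CPM. The part of that level in the proportions was not tested.

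For 4 other B-cell genes, Cxcr5, Fcer2a, Fcmr and Cr2, some of the intervals did not overlap. Fcer2a had 58.9 counts for each 100 of Ms4a1 in male WT replicate 2 (interval 47.0 to 73.6) and 87.8 in female LKO replicate 3 (78.8 to 97.9). Fcmr had 52.1 (41.1 to 65.6) and 74.9 (66.9 to 83.9) in these libraries, and Cr2 had 41.5 in female WT replicate 3 (29.3 to 57.9) and 71.3 in female LKO replicate 2 (60.2 to 84.5). Cxcr5 had 44.7 (interval 34.9 to 57.0) and 40.7 (28.7 to 56.9) counts for each 100 of Ms4a1 in the WT libraries, and 70.4 (59.4 to 83.5) and 68.6 (61.0 to 77.1) in the LKO libraries. The intervals of the WT libraries lay below those of the LKO libraries, but the genotypes hold 2 of the 4 libraries each, and the LKO libraries were also those with the most B-cell RNA, so that these cannot be told apart.

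Glycam1 of high endothelial venules departed furthest from a fixed proportion among the genes compared. Male WT replicate 2 had 3.65 counts for each 100 of Ms4a1 (interval 1.56 to 7.33), whereas female WT replicate 3 had 33.3 (22.8 to 47.8), female LKO replicate 2 33.4 (26.7 to 41.5) and female LKO replicate 3 28.7 (24.5 to 33.6). The interval of male WT replicate 2, the only male library of the 4, lay below those of the 3 female libraries. With 1 male library, sex and the library cannot be told apart.

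Female WT replicate 3, with the least Ms4a1, had the most counts of Cxcl13, Ltb and Ccr7 for each 100 of Ms4a1. Cxcl13 stood at 116 (interval 90.7 to 149) there, and at 75.3, 65.4 and 70.2 in male WT replicate 2 and female LKO replicates 2 and 3. Ccr7 stood at 52.0 (37.8 to 70.9) there and at 31.1, 31.6 and 31.5 in the same 3 libraries, and Ltb at 91.1 (69.9 to 119) there and at 64.4, 66.3 and 67.5. These intervals overlapped that of male WT replicate 2 for Cxcl13, those of male WT replicate 2 and female LKO replicate 2 for Ccr7, and those of all 3 for Ltb. Cxcl13, Ltb and Ccr7 also had a level in the 12 libraries with little Ms4a1, up to 5.71, 5.79 and 2.69 CPM. For Ltb, female WT replicate 3 itself held only 6.12 CPM. The part of these levels in the proportions was not tested.

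**Figure D4:**
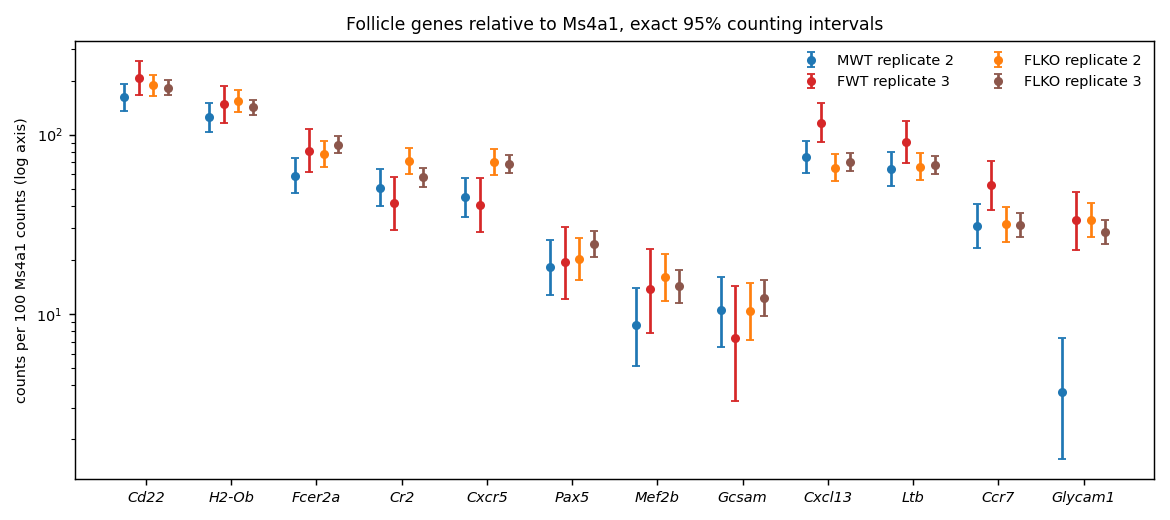
Counts of 12 genes for each 100 counts of Ms4a1 in the same library (vertical axis, logarithmic), with 1 colour for each of the 4 libraries. Points are the proportions and bars their exact 95% intervals, which cover counting error only. H2-Ob lies at 125 to 154 in all 4 libraries, while Glycam1 in male WT replicate 2 lies at 3.65, below the other 3.

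The rest of the tissue was measured by lists of other cell types, and 0 genes were set apart in any of them. Over all genes tested only 0.50% were set apart, so a count of 0 in short lists says little about these cell types. Ileal enterocyte genes had a median log2 difference of 0.13 over 19 genes, Paneth cell genes -0.07 over 11, goblet cell genes 0.05 over 10 and enteroendocrine and tuft cell genes 0.04 over 11. Fabp6, the ileal bile acid binding protein, measured 3621, 3624, 4806 and 4646 CPM against 2672 to 5501 CPM (median 3777) (0.02, SE 0.13). Apoa1, an apolipoprotein of enterocytes, differed by 0.38 (SE 0.13), the tuft cell genes Pou2f3 and Trpm5 by 0.56 (SE 0.18) and 0.46 (SE 0.18), and all of these ranges overlapped.

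Genes of dividing crypt cells had slightly lower medians in the 4 libraries. All 16 cell cycle genes and all 8 crypt stem cell genes had a negative difference, with medians of -0.15 and -0.13, against 48.5% of all genes with a positive one. Mki67, a marker of cycling cells, measured 206, 202, 179 and 177 CPM against 173 to 249 CPM (median 211) (-0.08, SE 0.06), and Lgr5, of crypt stem cells, differed by -0.19 (SE 0.09). The widest was Sox9, a crypt factor, with 20.5, 23.6, 22.8 and 24.3 CPM against 21.3 to 37.1 CPM (median 28.9) (-0.45, SE 0.08). Every one of these ranges overlapped, and the summed crypt stem cell genes stood at 1012 to 1218 CPM in the 4 libraries and at 1048 to 1401 CPM in the others.

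Markers of tissue outside the mucosa varied among the 4 libraries and not between the sets. The summed smooth muscle genes ran from 5143 to 7551 CPM in the 4 and from 3792 to 7858 CPM in the others, and the 8 genes of mesenteric fat and pancreas from 68.1 to 304 CPM and from 56.7 to 304 CPM. Of that last list, 3 pancreatic genes (Prss1, Cpa1, Pnlip) had 0 counts in every library. Adipoq, the fat-cell hormone adiponectin, measured 8.77, 11.9, 37.8 and 31.4 CPM against 5.17 to 34.4 CPM (median 16.4): the female LKO libraries, which had the most B-cell RNA, also had the most Adipoq of the 4. Genes of blood (median 0.05 over 5), fibroblasts and endothelium (-0.07 over 8) and enteric neurons and glia (-0.09 over 12) overlapped between the sets. The part of fat or muscle in the follicle genes was not tested.

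Since Cd79a chose the libraries, its level and the place of the 4 libraries among the labelled groups are given as a description, with no test. Of 8 WT libraries 2 were among the 4, as were 2 of 8 LKO libraries. By sex, 1 of 8 male and 3 of 8 female libraries were among them, and 0 of the 4 male LKO libraries. The mean log2 level of Cd79a in LKO minus that in WT was 0.42, and that in males minus that in females was -0.74, which became -0.95 without male WT replicate 2.

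With all 16 libraries, 42 of 15598 genes passed an adjusted p of 0.05 for genotype (0.269%) in edgeR's quasi-likelihood test with sex as covariate. Without the 4 libraries, 5 of 15780 genes did (0.0317%), all of them among the 42, and 1163 genes had an unadjusted p under 0.05 against 1753 before. With all libraries and the split by Cd79a as a further covariate, 72 genes passed, which included the 42, and 0 of the 42 were genes set apart by the split. The smaller set also has fewer libraries, and leaving out single libraries alone gave between 5 and 102 genes, so that the loss cannot be told apart from that of sample size.

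Among the genes that no longer passed without the 4 libraries, those of smallest p included Slc25a22, Pex11a and Dhcr7. Slc25a22, a mitochondrial glutamate carrier, was higher in LKO by 0.38 on the log2 scale (SE 0.06, edgeR adjusted p = 0.00589) and by 0.34 without the 4 libraries (SE 0.07, adjusted p = 0.155). Pex11a, of peroxisome division, was higher by 0.39 (SE 0.06, adjusted p = 0.0165) and by 0.40 without them (SE 0.08, adjusted p = 0.0805). Dhcr7, the last enzyme of cholesterol synthesis, gave -0.35 (SE 0.06, adjusted p = 0.0191) and then -0.34 (SE 0.08, adjusted p = 0.166). For these 3 genes the estimates moved by less than their SE, and the errors were wider.

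Ms4a1, whose level was far higher in the 4 libraries, differed between genotypes by 0.60 (SE 1.26, edgeR adjusted p = 0.908) with all libraries, with group means of 4.02 ± 6.6 CPM in male WT, 0.737 ± 0.273 in male LKO, 2.48 ± 2.84 in female WT and 15.9 ± 19.3 in female LKO (SD, n = 4 each). Without the 4 libraries the difference was -0.09 (SE 0.27). These were also the highest 4 libraries for Ms4a1, so leaving them out removed its high values. The second fit is therefore a description and no test of genotype. The SD exceeded the mean in the 3 groups that held chosen libraries, and the fit with all libraries did not call the gene.

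Bcl6 was compared between genotypes with and without the 4 libraries. LKO minus WT was 0.51 on the log2 scale with all libraries (SE 0.13, edgeR adjusted p = 0.121) and 0.41 without the 4 (SE 0.11, adjusted p = 0.254). With the split as covariate the difference was again 0.51 but the error smaller (SE 0.10), and the adjusted p was 0.0270. That split was cut from a measured value, Cd79a, so this p-value is conditional on it. In an alternative chosen after seeing the data, this covariate fit was repeated without each library in turn: the difference ran from 0.46 to 0.58 and the adjusted p from 0.0040 to 0.0661, reaching 0.05 or more in 8 of 16 fits. These were the fits without male WT replicate 1 or 2, female WT replicate 1, 2 or 3, or female LKO replicate 1, 2 or 3. DESeq2 without the covariate gave an adjusted p of 0.0117.

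Fgf15, the ileal hormone that signals bile acid uptake to the liver, ran over a wide range in the 4 libraries, with 16.2, 2.68, 48.6 and 94.4 CPM. The other 12 ran from 1.70 to 75.1 CPM (median 33.3 CPM), so the sets overlapped and their log2 difference was -0.49 (SE 0.70). It was -1.61 without male WT replicate 2 and -0.08 without female WT replicate 3. The genotype difference, fitted over both sexes, was 1.65 (SE 0.58, edgeR adjusted p = 0.286) with all libraries. It was 1.99 (SE 0.69, adjusted p = 0.518) without the 4, and was not called in either. Group means were 6.03 ± 6.90 CPM in male WT and 36.7 ± 12.3 in male LKO. They were 36.5 ± 31.1 in female WT and 67.5 ± 21.0 in female LKO (SD), and the sexes were not tested apart.

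For sex, 1723 genes passed with all libraries (11.0%) and 897 of 15780 without the 4 (5.68%), of which 751 were among the former. With the split as covariate 1347 passed, 1222 of them shared. Leaving out male LKO replicate 3 alone gave 934, so that the loss without the 4 cannot be told apart from that of sample size. The cause of single calls lost or gained was not tested. Dcbld1, higher in males by 0.25 (SE 0.05, edgeR adjusted p = 0.00533), gave 0.18 without the 4 libraries (SE 0.05, adjusted p = 0.0521). Oas3, an interferon-induced sensor of viral RNA, gave 0.21 with all libraries (SE 0.14, adjusted p = 0.340) and was higher in males by 0.43 without them (SE 0.09, adjusted p = 0.0132). Lpin2, a phosphatidate phosphatase, likewise gave 0.22 (SE 0.09, adjusted p = 0.122) and then 0.35 (SE 0.07, adjusted p = 0.0103).

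Within the other 12 libraries, which the rule left out, the level of Cd79a was compared with 12 genes across libraries. It rose with Cd3e (Pearson r = 0.85, permutation p = 3.4e-04, adjusted over 12 genes 0.00204, Spearman rho = 0.85, p = 8e-04) and with Cd74 (r = 0.81, p = 6e-05, adjusted 0.00072, rho = 0.89, p = 3.4e-04). Leaving out the 2 libraries with the most extreme Cd79a gave r of 0.74 and 0.69. The permutations did not keep the sexes apart. Cd74 ran from 1197 to 2704 CPM in the 7 males of these libraries and from 2814 to 3558 CPM in the 5 females. The p-values therefore do not separate sex from the spread between libraries. Among the 7 males r was 0.79 for Cd3e and 0.76 for Cd74, and the 5 females were too few for a correlation of their own.

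Ms4a1 and Cr2 did not pass this test among the 12. For Ms4a1 r was -0.14 (permutation p = 0.669, adjusted 0.730, rho = -0.02), and it turned to 0.13 without the 2 farthest libraries. Cr2 gave 0.28 (adjusted p = 0.558) and Cxcl13 -0.42 (adjusted p = 0.339). Bcl6 (-0.16), Ccl20 (0.45), Mki67 (-0.26), Fabp6 (0.26) and Fgf15 (0.51) did not pass either. Ms4a1 lay at no more than 1.28 CPM and Cr2 at no more than 0.660 CPM in the 12 libraries.

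**Figure D5:**
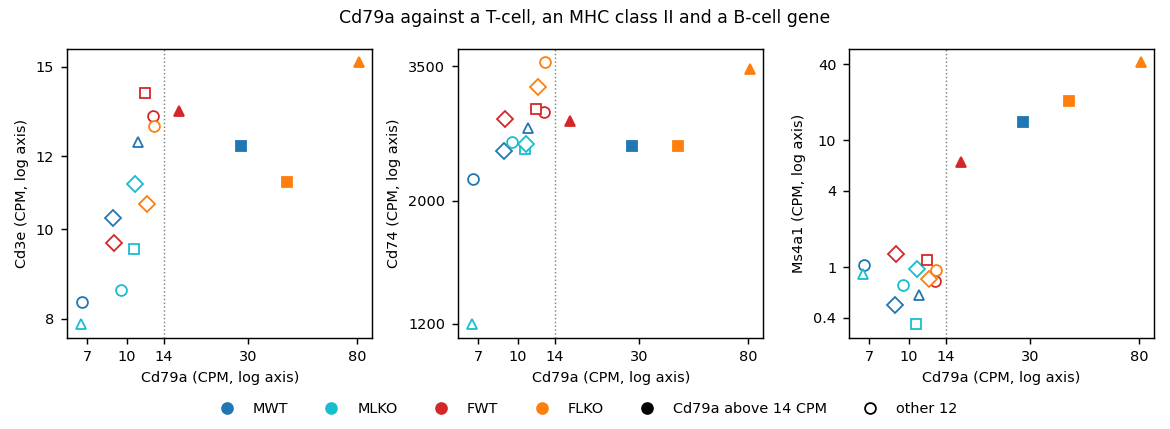
Cd3e, Cd74 and Ms4a1 (vertical axes, CPM, logarithmic) against Cd79a (horizontal axis, CPM, logarithmic), with 1 point per library, coloured by group, with circles, squares, triangles and diamonds for replicates 1 to 4 and filled symbols for the 4 libraries. The dotted line is the threshold of 14 CPM. Left of it the open symbols rise for Cd3e and Cd74 and scatter for Ms4a1, and right of it the 4 filled symbols lie higher for Ms4a1, from 6.73 to 41.2 CPM.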

How the data were processed

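Poly(A) RNA of the ileum was sequenced as single-end reads from a strand-preserving library kit. The authors aligned reads to mm10 with STAR 2.5.2, kept uniquely aligned reads, and counted reads over exons with HOMER 4.10, merging the transcripts of a gene. The deposited table holds these counts, not normalised, for 24940 genes, of which 4426 had 0 counts throughout and 410 were listed at several genomic positions.

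From the counts, CPM was computed with the column sum, and log2 differences were fitted with edgeR 4.0.16 (R 4.3.3; limma 3.58.1) after trimmed-mean scaling and edgeR's default filter on low counts, with robust quasi-likelihood dispersions. The split by Cd79a was fitted with genotype and sex as covariates, and SE is the size of the difference over the root of the F statistic. Genotype and sex effects were tested with Benjamini-Hochberg adjustment at 0.05, with all libraries, without the 4 above the threshold and with the split as covariate. The level of Cd79a by labelled group is given on log2 CPM with a prior count of 2 as a description. Correlations were tested by 100000 permutations that did not keep the sexes apart. Proportions of counts carry exact 95% binomial (Clopper-Pearson) intervals, which cover counting error only.

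The libraries, gene lists and tests were chosen with earlier results of these data known. Named genes were the members of the lists, Bcl6, Fgf15, up to 15 further genes with the widest difference of the split at a mean of at least 1 CPM, and up to 5 genes of smallest p whose call for genotype or sex was lost or gained without the 4 libraries. The promoters were chosen after values were seen. Alternatives were other scalings and filters, DESeq2 1.42.0, thresholds of 10 and 20 CPM, other minimum folds, a replicate block and leaving out each library. The fits were tested on simulated data. Promoter sequences are those of RefSeq on GRCm38.p6. Some results that these steps gave are not reported here.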

Additional observations from a re-analysis of the deposited data

Results flagged for a closer look

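In 53 of 316 comparisons of a gene within a labelled group of 4 libraries, the highest or lowest library lay so far from the nearest of the others, relative to the range of the group, that it passed Dixon's 95% limit. Chance flags about 1 in 20 such groups, and the genes were chosen for differing between the libraries. In female LKO, where 2 libraries were high together, such a gap did not arise for the B-cell genes.

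Male WT replicate 2 gave 31 of the 53, each as the highest of its group. Its B-cell surface genes were Bank1 (6.42 CPM), Btla (8.26 CPM), Cd22 (22.4 CPM), Cd37 (18.1 CPM), Cd72 (17.3 CPM), Cr2 (7.05 CPM), Cxcr5 (6.23 CPM), Fcer2a (8.20 CPM), Fcmr (7.24 CPM), Fcrl1 (6.29 CPM), Ms4a1 (13.9 CPM), Siglecg (8.39 CPM) and Tnfrsf13c (8.45 CPM). Its signalling and nuclear factor genes were Blk (8.01 CPM), Mef2b (1.21 CPM), Pax5 (2.54 CPM), Pou2f2 (7.05 CPM), Spib (21.3 CPM) and Tcf7 (13.9 CPM). The MHC class II genes were H2-Eb2 (6.23 CPM), H2-Oa (3.81 CPM) and H2-Ob (17.3 CPM). The germinal centre, stromal, venule and homing genes were Gcsam (1.46 CPM), Ccl19 (0.699 CPM), Clu (75.3 CPM), Ltb (8.96 CPM), Glycam1 (0.508 CPM), Ccr6 (4.32 CPM) and Ccr7 (4.32 CPM). Chst3 (9.91 CPM) and Snn (13.2 CPM) complete them.

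Female WT replicate 3 was the highest of its group for 6 genes: Cd22 (13.9 CPM), Cr2 (2.79 CPM), Fcer2a (5.47 CPM), Fcmr (3.50 CPM), Glycam1 (2.24 CPM) and Ms4a1 (6.73 CPM). Female LKO replicate 3 was the highest of its group for Cd8a (32.5 CPM).

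Outside the 4 libraries, male LKO replicate 3 was the lowest of its group for Cd74 (1197 CPM), H2-Aa (363 CPM) and H2-Ab1 (368 CPM), and the highest for Ly6d (20.5 CPM), Treml2 (1.28 CPM) and Glycam1 (0.111 CPM, from 2 counts). Female WT replicate 4 was the lowest for Gzma (54.2 CPM), Icos (3.23 CPM) and Tcf7 (12.8 CPM). Male LKO replicate 1 was the lowest for Cd79b (6.11 CPM) and Ly86 (7.13 CPM), and male LKO replicate 2 the lowest for Bank1 (1.07 CPM) and the highest for Cd37 (6.81 CPM). Male WT replicate 1 was the lowest for Cd8a (16.9 CPM) and the highest for Olfm4 (924 CPM).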

How the results depend on the processing

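The number of genes set apart with higher values in the 4 libraries, 78, was 128 with a 1.5-fold minimum, 148 with no minimum fold, 2 with a threshold of 10 CPM of Cd79a (11 libraries), and 60 to 122 when single libraries were left out, highest without female WT replicate 3. Lower genes were 1 with no filter, 23 with no minimum fold, 1 with a threshold of 20 CPM (3 libraries), and 0 to 1 on leaving out single libraries. The other scalings, filters and DESeq2 kept these counts within 1.5 times. Genotype calls, 42, were 69 with column-sum scaling, 224 with DESeq2, 5 without the 4 libraries, 72 with the split as covariate, and 5 (without male WT replicate 1) to 102 (without male WT replicate 4) on leaving out single libraries. Sex calls were 897 without the 4 libraries and 934 (without male LKO replicate 3) to 1956 (without female WT replicate 3) on leaving out single libraries. The difference in Cd79a by genotype ran from 0.16 to 0.63 on leaving out single libraries, and that by sex from -0.95 (without male WT replicate 2) to -0.48. The genotype difference of Ms4a1, which was not called, reversed to -0.090 without the 4 libraries, which were also the highest 4 for Ms4a1. On leaving out single libraries it ran from -0.20 (without female LKO replicate 3) to 1.96 (without male WT replicate 2). The correlation of Ms4a1 with Cd79a among the 12 libraries reversed, to 0.13, without the 2 farthest libraries. Of the values for single genes, 2319 were counted as the same and 60 as moved, mostly at the threshold of 10 CPM. The cause was not tested. For a difference of the split, the same meant a move no larger than the SD within the sets. Differences under 2-fold could therefore change sign without being counted as reversed. That of Fabp6 did so, from -0.063 to 0.097 on leaving out single libraries. Replicate numbers did not pair the libraries: deviations of libraries with the same number correlated at -0.104 to 0.256, 4 of 16 correlated best with their own number, and a fit with the replicate block called 16 genes for genotype, 15 of them among the 42. Depth limits the genes near 1 CPM, such as Pax5 and Glycam1, where 3 counts equal up to 0.191 CPM in the 4 libraries.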
